A study of Mus musculus with 21 samples.

Results

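Gene expression in the cerebral cortex of GA-Camk2a mice was compared with that of control mice by bulk RNA sequencing. The comparison used the libraries labelled as cortex, 11 of the 21 libraries sequenced, from 5 control mice (numbered 11, 20, 31, 37 and 38) and 6 GA-Camk2a mice (16, 23, 30, 34, 35 and 41). The other 10 libraries came from hippocampus. A legend of the study gives fewer control mice than these 5 for neocortex, and 5 for hippocampus, so it and the labels disagree. GA-Camk2a mice carry a floxed-stop transgene for GFP-tagged poly-GA, a dipeptide repeat protein made from the expanded C9orf72 repeat, and a Camk2a-Cre driver that switches it on in excitatory forebrain neurons. The line was kept on a C57BL/6J background, and per the study's methods its mice came from 2 litters. Mice were killed at 30 to 40 weeks of age and perfused with PBS before a hemisphere was frozen. The labels call the comparison animals only ctrl and do not give sex. A legend of the study names Camk2a mice as the controls of its staining in this line. Whether the sequenced controls carried the same alleles is not stated, so their alleles are not known here. Libraries were made with prime-seq, which reads the 3′ ends of poly(A) RNA, and the labels put the cortex libraries in batch 1 (controls 11, 31 and 38 with GA-Camk2a 23, 30, 34 and 41) and batch 2 (controls 20 and 37 with GA-Camk2a 16 and 35). Each library is a separate mouse, so the p-values measure the spread between these mice.

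Poly-GA is meant to be made in the excitatory pyramidal neurons of these mice, and microglia, astrocytes, oligodendrocytes and interneurons surround them. Microglia are the resident macrophages, which sense debris and infection through pattern and Fc receptors, present antigen on MHC molecules and respond to interferon. Astrocytes clear glutamate and potassium and raise intermediate filaments when they become reactive, and the electrical state of pyramidal neurons sets the transcription of their activity-dependent genes. Because the tissue was homogenised whole, fewer cells of a type and less RNA per cell cannot be told apart in any value below.

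Depth and identity of the libraries were examined before the comparison. The cortex libraries held 1048201 to 3609323 counts in controls and 1112553 to 2857816 in GA-Camk2a mice, of which 12.07% to 15.38% were mitochondrial. The summed level of 6 microglial markers was 172 to 206 CPM in controls and 399 to 617 CPM in GA-Camk2a mice, with 4 of the 6 called higher. Most of this rise was that of the complement gene C1qa, with means of 79.4 CPM in controls and 315 CPM in GA-Camk2a mice. P2ry12 (means 37.9 and 38.9 CPM) and Tmem119 (10.9 and 9.31 CPM) were not called. The summed level of 5 excitatory neuron markers was 912 to 1188 CPM in controls and 658 to 808 CPM in GA-Camk2a mice, with 4 of the 5 called lower. The GFP row held at most 4 counts in any cortex library, with 0, 0, 0, 2 and 2 in the controls and 0 to 4 in GA-Camk2a mice. GFP lies at the upstream end of the transgene, where reads from the 3′ end need not fall, so this row checks neither label. Xist, the RNA of the inactive X chromosome, stood above the summed Y-linked Ddx3y and Eif2s3y in control 31, GA-Camk2a 16 and GA-Camk2a 35. Control 31 also had the lowest ribosomal protein level of the controls. Counts of calls are therefore given with and without these 3 libraries, which are called the high-Xist libraries, for each list with at least 3 calls. Transthyretin (Ttr), a choroid plexus product, reached 8205 CPM in GA-Camk2a 34 and 1772 to 2707 CPM in the other GA-Camk2a libraries, and the 4 hemoglobin rows together lay at 647 to 991 CPM in controls and 751 to 2236 CPM in GA-Camk2a mice.

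Many immune, interferon and lysosomal genes were higher in GA-Camk2a cortex, together with genes of reactive astrocytes, while many genes of striatal-type and pyramidal neurons, activity-dependent transcription factors, calcium signalling proteins and potassium channels were lower. With edgeR's quasi-likelihood test, batch as a covariate and Benjamini-Hochberg adjustment over the 13058 genes tested, 1635 genes had an adjusted p under 0.05, which is 12.5% of those tested. Of these, 829 (6.35% of the genes tested) were higher and 806 (6.17%) lower in GA-Camk2a mice. The rises were larger, since 195 of the higher genes but 53 of the lower ones changed by more than 1 on the log2 scale. All 6 GA-Camk2a libraries lay above all 5 controls for 446 genes (3.42%) and below them for 433 (3.32%). The fold changes below are log2 values, GA-Camk2a minus control, with their standard error, and the median over all genes tested was -0.01.

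**Figure D1:**
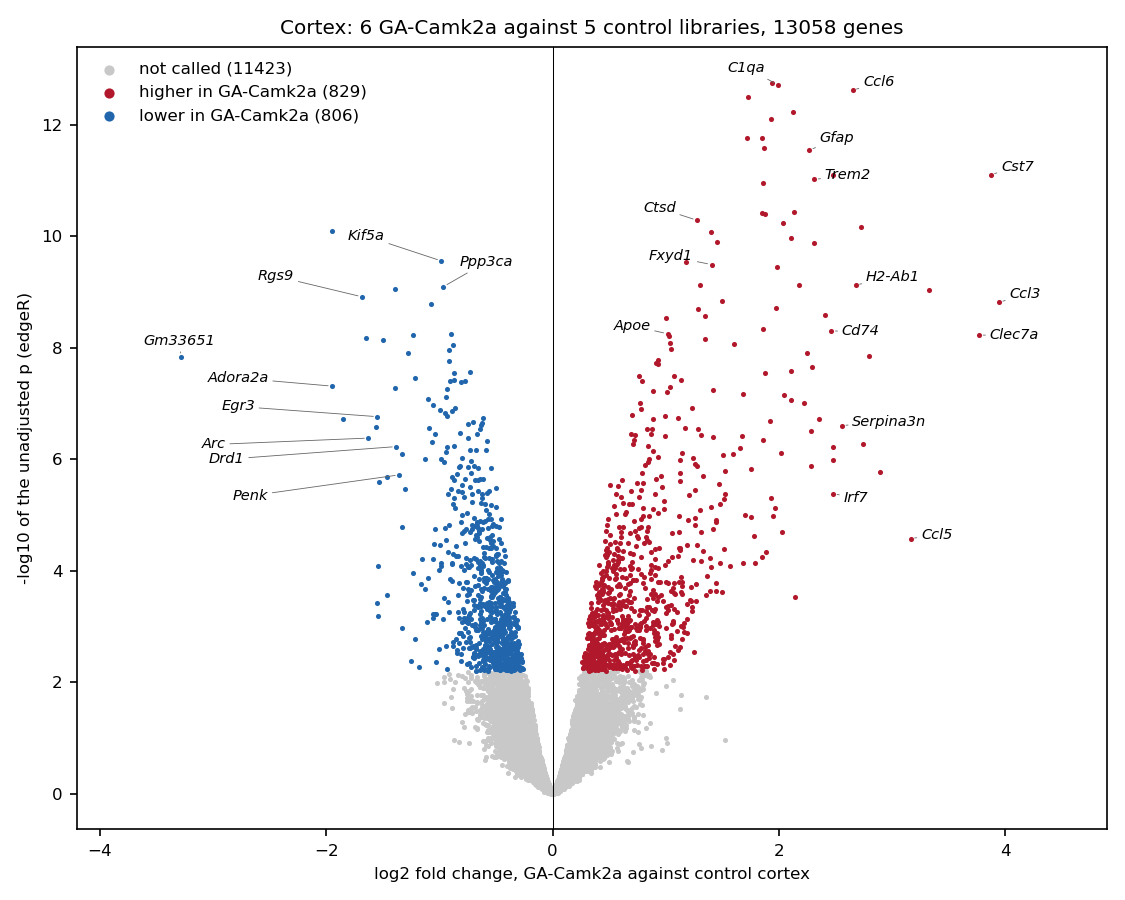
Change and p-value of each gene tested in cortex. The x axis is the log2 fold change of GA-Camk2a (n = 6) over control (n = 5), the y axis −log10 of the unadjusted p, and each point is a gene: 829 called higher in red, 806 called lower in blue and the 11423 not called in grey. The red points reach further from 0 than the blue ones.

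The strength of these counts depended on which libraries entered. The count fell to 1038 without control 31 and to 399 (228 higher, 171 lower) without the 3 high-Xist libraries, of which 384 were among the original calls, and all 1619 called genes tested there kept their sign. The GA-Camk2a libraries left are then all of batch 1, and without the batch term the same libraries gave 645 calls. Batch 1 alone gave 876 calls and batch 2 alone 230, and 1565 of the 1567 called genes fitted in each batch had the same sign in both. The genes compared by sign were chosen in the fit of these same libraries. Agreement was thus largely fixed in advance and is no independent check. 69 gene lists were then described, none of them tested as a set. They held 1485 genes tested, of which 270 were higher and 224 lower, while 348 list members had too few counts to be tested. In the accounts of lists with at least 3 calls, "without the high-Xist libraries" gives the number called when control 31, GA-Camk2a 16 and GA-Camk2a 35 are left out. A single library is named where leaving it out moved such a count by more than 1.5 times.

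**Figure D2:**
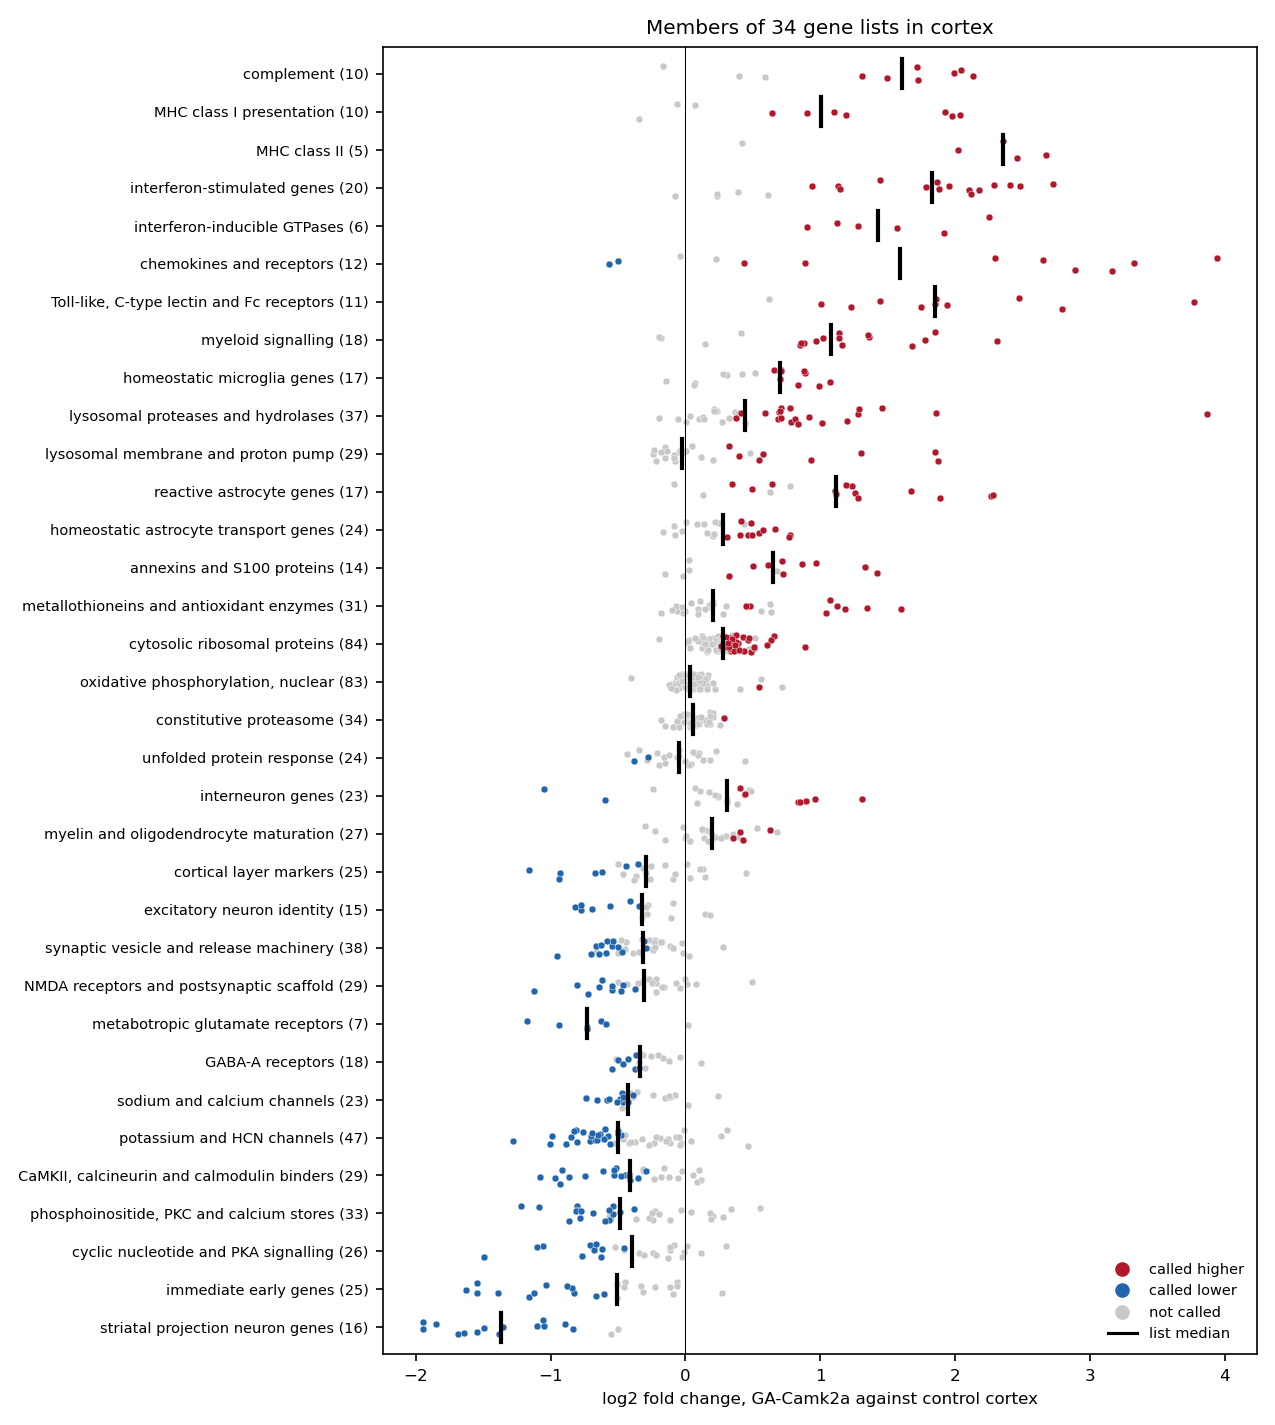
Log2 fold change of the tested members of 34 gene lists in cortex, GA-Camk2a (n = 6) over control (n = 5). Each point is a gene, red where called higher, blue where called lower and grey where not called; the black bar is the list's median and the number in brackets how many members were tested. Most members of the immune lists lie to the right of 0, with medians up to 2.36, and the striatal list lies furthest to the left, with a median of -1.37.

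Genes induced by interferon were among those with the largest rises. Of 20 interferon-stimulated genes tested, 15 were higher, none was lower and 5 were not called, with a median log2 fold change of 1.83, against 6.35% of all genes called higher. The 6 interferon-inducible GTPases tested, which attack the membranes of intracellular pathogens, were all higher, with a median of 1.43. Without the high-Xist libraries the numbers higher were 9 and 3. Ifitm3, a membrane protein that blocks virus entry, was at 41.3, 30.8, 30.5, 38.5 and 30.8 CPM in controls 11, 20, 31, 37 and 38 and at 84.4 to 179.8 CPM (median 117) in GA-Camk2a mice. The genotypes did not overlap, and the change was 1.87 ± 0.13 (adjusted p = 3.79e-09). Irf7, the transcription factor that amplifies the interferon response, was at 6.05, 0, 2.11, 3.17 and 0.556 CPM in the controls in the same order and 6.07 to 27.3 CPM (median 8.90) in GA-Camk2a mice, again without overlap (2.48 ± 0.41, adjusted p = 0.000243). Ifit3, an antiviral tetratricopeptide protein, lay at 14.1, 10.6, 9.12, 8.45 and 13.3 CPM in controls. In GA-Camk2a mice it was at 37.4 to 101 CPM (median 43.9), above each control (2.18 ± 0.21, adjusted p = 3.1e-07), and the highest value, in GA-Camk2a 16, stood apart from the others.

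Other interferon-stimulated genes rose alongside. They included Ifi27l2a (2.73 ± 0.23), a small mitochondrial protein, Rtp4 (2.40 ± 0.25), a receptor transporter, Ifit1 (2.29 ± 0.32) and Oasl2 (2.11 ± 0.27), which restrict viral RNA, Usp18 (1.95 ± 0.34), which removes ISG15 from proteins and dampens the receptor, Bst2 (1.79 ± 0.37), which tethers budding virus, and Lgals3bp (2.12 ± 0.14), a secreted glycoprotein. Of the signal transducers Irf9 (1.13 ± 0.24) was called, whereas Stat2 was at 0.24 ± 0.20 and was not called. Isg15 itself held 17 counts over the 5 controls and 74 over the 6 GA-Camk2a libraries, too few to test. Among the GTPases, Gbp2 was at 2.02, 3.85, 2.46, 2.64 and 2.50 CPM in controls and 8.54 to 22.6 CPM (median 11.6) in GA-Camk2a mice (2.25 ± 0.26, adjusted p = 2.7e-06), with no overlap. Tgtp1 (1.92 ± 0.26), Gbp3 (1.57 ± 0.33), Igtp (1.28 ± 0.25), Irgm1 (1.13 ± 0.17) and Gbp7 (0.90 ± 0.24) followed. Ifit3 and Ifit3b, and Tgtp1 and Tgtp2, are near copies whose reads the counting may have divided.

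Promoters of these genes are shown because the members of both lists moved together. RefSeq promoter windows, 250 bases before to 50 bases after the start of the gene, were searched on both strands, overlapping matches counted, for the letters GAAANNGAAA, the core of the interferon-stimulated response element, whose reverse complement is TTTCNNTTTC. The letters occurred in 1131 of 32851 windows (3.44%) and in 312 of the 8911 tested genes that had a window (3.5%). They occurred in 6 of 6 interferon-inducible GTPases tested and in 6 of 16 interferon-stimulated genes tested that had a window (37.5%). Of all listed interferon-stimulated genes with a window, tested or not, 16 of 31 had them (51.6%). Among tested members with a window they were in 3 of 10 MHC class I (30%), 1 of 5 immunoproteasome (20%), 1 of 5 complement (20%) and 1 of 9 chemokine and receptor genes (11.1%). Of members called higher 5 of 11 interferon-stimulated and 3 of 7 MHC class I genes had them. So did 1 of 4 immunoproteasome, 0 of 3 complement and 1 of 5 chemokine and receptor genes. A match is a description of the sequence and not a shown binding site. Of the called members with the letters, the 2 with the lowest p in each of the 2 interferon lists are printed here in the GRCm38.p6 build, 5′ to 3′ on the strand of the gene, with matches in capitals: Ifitm3 at chr7:141010695-141010994 (minus strand), Ifit3 at chr19:34583279-34583578 (plus), Gbp2 at chr3:142620413-142620712 (plus) and Tgtp1 at chr11:48992197-48992496 (minus).
Ifitm3: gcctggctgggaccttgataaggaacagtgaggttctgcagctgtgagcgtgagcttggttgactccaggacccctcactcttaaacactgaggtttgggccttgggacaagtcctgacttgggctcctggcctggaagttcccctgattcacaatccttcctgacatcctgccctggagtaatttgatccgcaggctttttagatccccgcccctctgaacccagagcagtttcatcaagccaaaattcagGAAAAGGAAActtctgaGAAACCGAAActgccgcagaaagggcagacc
Ifit3: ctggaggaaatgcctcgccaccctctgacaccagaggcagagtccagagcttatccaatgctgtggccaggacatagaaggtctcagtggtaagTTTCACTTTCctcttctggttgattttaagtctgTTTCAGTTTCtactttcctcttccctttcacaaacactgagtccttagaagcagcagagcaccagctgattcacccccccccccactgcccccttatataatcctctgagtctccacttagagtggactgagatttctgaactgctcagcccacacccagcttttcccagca
Gbp2: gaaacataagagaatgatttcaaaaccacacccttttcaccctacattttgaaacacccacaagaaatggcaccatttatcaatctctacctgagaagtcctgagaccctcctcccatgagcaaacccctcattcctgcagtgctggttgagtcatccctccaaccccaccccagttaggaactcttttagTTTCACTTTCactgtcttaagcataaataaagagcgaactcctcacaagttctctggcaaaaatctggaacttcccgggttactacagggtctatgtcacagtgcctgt
Tgtp1: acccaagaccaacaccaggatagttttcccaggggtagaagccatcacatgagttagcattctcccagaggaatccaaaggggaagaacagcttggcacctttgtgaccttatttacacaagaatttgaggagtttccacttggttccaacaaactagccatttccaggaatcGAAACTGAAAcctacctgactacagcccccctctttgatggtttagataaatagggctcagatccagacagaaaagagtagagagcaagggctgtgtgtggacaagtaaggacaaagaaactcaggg
Ifitm3 and Ifit3 had 2 matches each and Gbp2 and Tgtp1 had 1 each. In Ifit3 and Gbp2 the match read TTTCNNTTTC on the strand of the gene, and in Ifitm3 and Tgtp1 it read GAAANNGAAA.

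Most genes of antigen presentation rose, on both MHC classes. For class I, which displays peptides from inside the cell, 7 of 10 genes tested were higher (3 without the high-Xist libraries) with a median of 1.00. B2m, the invariant light chain, was at 192, 217, 198, 203 and 219 CPM in controls and 604 to 1163 CPM (median 699) in GA-Camk2a mice. These ranges were separate, and the change was 1.93 ± 0.13 (adjusted p = 1.75e-09). The heavy chains H2-K1 (2.04 ± 0.17) and H2-D1 (1.98 ± 0.18), similar genes between which reads are hard to assign, rose by a like amount, followed by H2-T23 (1.19 ± 0.23), H2-M3 (1.10 ± 0.30) and the loading factor Tapbp (0.91 ± 0.18). The general chaperones of class I folding, Calr (-0.34 ± 0.14), Canx (-0.06 ± 0.10) and Pdia3 (0.07 ± 0.15), were not called. The interferon-induced proteasome subunits Psmb8 (2.31 ± 0.20) and Psmb9 (1.75 ± 0.27) and the activator subunits Psme1 (0.62 ± 0.11) and Psme2 (0.62 ± 0.12) rose, 2 of these 4 without the high-Xist libraries, and Psmb8 was at 8.07, 5.78, 5.61, 7.39 and 8.34 CPM in controls against 21.7 to 57.4 CPM (median 34.7) in GA-Camk2a mice, without overlap. Of the constitutive proteasome 1 of 34 genes tested was called, Psmb6 (0.29 ± 0.09), but not without control 31, and the list's median was 0.06.

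For MHC class II, which displays ingested peptides, 4 of 5 genes tested rose, also without the high-Xist libraries (4). Cd74, the invariant chain, was at 52.4, 36.6, 24.6, 32.2 and 38.4 CPM in controls and 123 to 344 CPM (median 139.5) in GA-Camk2a mice, without overlap (2.46 ± 0.27, adjusted p = 1.43e-06). The chains H2-Ab1 (2.68 ± 0.26), H2-Aa (2.36 ± 0.32) and H2-Eb1 (2.02 ± 0.30) rose with it. H2-DMa, which edits the bound peptide, was at 0.42 ± 0.17 and was not called.

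Complement genes of the classical pathway rose. C1qa, a chain of the recognition molecule C1q that microglia make, was at 77.6, 85.7, 69.1, 79.7 and 85.0 CPM in controls and 245 to 432 CPM (median 287) in GA-Camk2a mice. The lowest GA-Camk2a value exceeded the highest control, with a change of 1.99 ± 0.13 (adjusted p = 1.06e-09). C1qb (1.73 ± 0.11) and C1qc (1.72 ± 0.12) rose with it, as did C4b (2.14 ± 0.18), the component C1 cleaves, Serping1 (1.49 ± 0.15), the C1 inhibitor, C3ar1 (2.05 ± 0.26), the receptor of a C3 fragment, and the integrin chain Itgb2 (1.31 ± 0.24). C4b has a near copy in the mouse genome. The alpha chain Itgam was at 0.59 ± 0.32 and was not called. In all, 7 of 10 complement genes tested were higher and none was lower, with 6 higher without the high-Xist libraries.

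Chemokines of the CCL family held several of the largest rises. Ccl3, which attracts myeloid cells, was at 2.02, 0, 0, 0.528 and 1.95 CPM in controls and 11.7 to 21.1 CPM (median 15.4) in GA-Camk2a mice (3.94 ± 0.40, adjusted p = 5.34e-07). The genotypes did not overlap. Controls 20 and 31 had no count of it, so the fold depends on the prior count of the fit. Ccl12 (3.33 ± 0.33), Ccl4 (2.89 ± 0.45), Ccl6 (2.65 ± 0.17) and the membrane-bound Cxcl16 (2.29 ± 0.27) also rose. Ccl5 was at 3.02, 0, 2.46, 1.06 and 2.50 CPM in controls and 5.55 to 75.3 CPM (median 14.1) in GA-Camk2a mice, with GA-Camk2a 16 far above the others and no overlap with the controls. Its call (3.16 ± 0.60, adjusted p = 0.00104) was lost in 6 of the 23 alternatives tried. The neuronal chemokine Cx3cl1 (-0.50 ± 0.11), whose receptor is Cx3cr1 (0.89 ± 0.15) on microglia, fell, and so did the scavenging receptor Ackr1 (-0.57 ± 0.16). In all, 8 of 12 chemokine and receptor genes were higher and 2 lower, with 6 higher without the high-Xist libraries and both falls lost. Cxcl10 held 5 counts over the controls and 66 over the GA-Camk2a libraries and was not tested. Of the cytokine and NF-κB list 5 of 11 genes tested were higher, namely Tnfaip8l2 (1.40 ± 0.29), Tgfb1 (1.39 ± 0.32), Tnfrsf1a (1.05 ± 0.24), Nfkbia (0.71 ± 0.14) and Vcam1 (0.38 ± 0.12), and these calls were lost without the high-Xist libraries. Without GA-Camk2a 16 or 41 3 were called and without GA-Camk2a 23, 30, 34 or 35 2. The NF-κB subunits Rela (0.31 ± 0.18), Relb (0.55 ± 0.26), Nfkb1 (-0.12 ± 0.25) and Nfkb2 (0.03 ± 0.20) were not called.

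Receptors by which myeloid cells sense debris and antibody rose in most cases, with 10 of 11 Toll-like, C-type lectin and Fc receptor genes tested higher and 9 without the high-Xist libraries. Cd14, the co-receptor for bacterial lipopolysaccharide, was at 1.01, 4.82, 2.81, 5.28 and 5.28 CPM in controls and 16.7 to 42.3 CPM (median 28.4) in GA-Camk2a mice (2.79 ± 0.32, adjusted p = 2.95e-06), with no overlap. Tlr2 (2.48 ± 0.37), which binds bacterial lipoproteins, its adaptor Myd88 (1.23 ± 0.29) and the trafficking factor Unc93b1 (1.01 ± 0.22) rose. The Fc receptors Fcgr3 (1.86 ± 0.20) and Fcgr1 (1.75 ± 0.31), the signalling chain Fcer1g (1.85 ± 0.15) that both use and the inhibitory receptor Fcgr2b (1.45 ± 0.26) rose as well, whereas Tlr3, which senses double-stranded RNA, was at 0.62 ± 0.29 and was not called.

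Downstream myeloid signalling showed the same direction in 14 of 18 genes tested (7 without the high-Xist libraries). Trem2, a lipid-sensing receptor, was at 38.3, 27.0, 23.2, 22.2 and 26.4 CPM in controls and 93.1 to 191 CPM (median 119) in GA-Camk2a mice (2.31 ± 0.18, adjusted p = 9.7e-09), with no overlap, and its adaptor Tyrobp (1.85 ± 0.13) rose with it. The phosphatase Ptpn6 (1.78 ± 0.33), the exchange factor Vav1 (1.36 ± 0.29), the lysosomal adaptor Laptm5 (1.35 ± 0.15), the haematopoietic GTPase Rac2 (0.97 ± 0.23) and the myeloid transcription factors Spi1 (1.14 ± 0.26) and Irf8 (1.68 ± 0.21) rose. Of the ligands of the CSF1 receptor Csf1r (0.88 ± 0.12), Csf1 (1.14 ± 0.17) rose and the neuronal Il34 was at -0.20 ± 0.13 and was not called. Among surface receptors of leukocytes, Cd52 (2.48 ± 0.19), Cd86 (1.97 ± 0.34), Lag3 (1.26 ± 0.28), Cd53 (1.26 ± 0.22) and Cd83 (0.67 ± 0.15) rose, while the partners of the neuronal inhibitory signals, Cd47 (-0.18 ± 0.09) with Sirpa (0.06 ± 0.09), were not called. Of the Ms4a, Siglec and inhibitory receptor list 5 of 8 were higher, and 1 without the high-Xist libraries.

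Genes typical of resting microglia moved unevenly. 10 of 17 were higher and none lower (4 higher without the high-Xist libraries), with a median of 0.70. Called members included Olfml3 (1.08 ± 0.24), Fcrls (0.99 ± 0.21), Gpr34 (0.84 ± 0.20) and Siglech (0.70 ± 0.23). The purinergic receptor P2ry12 (0.07 ± 0.13), Tmem119 (-0.14 ± 0.23) and the transcription factor Sall1 (0.31 ± 0.28), which define the resident cell, were not called. Of genes of border macrophages and monocytes, Pf4 (1.08 ± 0.31) rose, a call lost without control 31, and Ly6c2 was at 0.46 ± 0.28. Among lymphocyte genes with enough counts, the T cell receptor chain Trbc2 (-0.69 ± 0.20) fell, also a call lost without control 31, and the immunoglobulin chain Ighm was at -0.42 ± 0.16. The 7 cell cycle genes tested, with a median of 0.33, were not called by edgeR or DESeq2, and 1 had an unadjusted p under 0.05.

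Many genes of lysosomal enzymes rose, whereas those of the pump that acidifies the lysosome were mostly not called. Of 37 lysosomal proteases and hydrolases tested, 20 were higher and none lower (14 higher without the high-Xist libraries). The cathepsin Ctsd was at 366, 338, 324, 332 and 387 CPM in controls and 645 to 1013 CPM (median 848) in GA-Camk2a mice, with separate ranges (1.28 ± 0.11, adjusted p = 3.79e-08). Ctss (1.86 ± 0.14), Ctsz (1.46 ± 0.13), Ctsh (1.29 ± 0.18), Ctsb (0.69 ± 0.10) and the progranulin gene Grn (1.01 ± 0.13) rose, and so did the glycosidases Gusb (0.92 ± 0.14), Hexa (0.83 ± 0.11) and Man2b1 (0.71 ± 0.12). Smpd1 (-0.06 ± 0.10), Glb1 (0.00 ± 0.16) and Arsa (0.04 ± 0.19) were among the hydrolases not called. Of the membrane and pump list, 8 of 29 were higher (4 without the high-Xist libraries and 5 without GA-Camk2a 16 alone), led by Cd68 (1.88 ± 0.16), Slc11a1 (1.85 ± 0.37), Cd63 (1.31 ± 0.13) and Npc2 (0.93 ± 0.11). The proton pump subunits in it, such as Atp6v1a (-0.15 ± 0.08) and Atp6v0c (-0.02 ± 0.10), were not called apart from Atp6v0e (0.54 ± 0.13). Autophagy genes had 2 higher and 1 lower of 30 (1 higher without the high-Xist libraries), close to or below the shares of all genes (6.35% and 6.17%), namely the cargo receptor Sqstm1 (0.51 ± 0.08), Gabarap (0.27 ± 0.09) and the ubiquitin adaptor Ubqln2 (-0.38 ± 0.10).

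**Figure D3:**
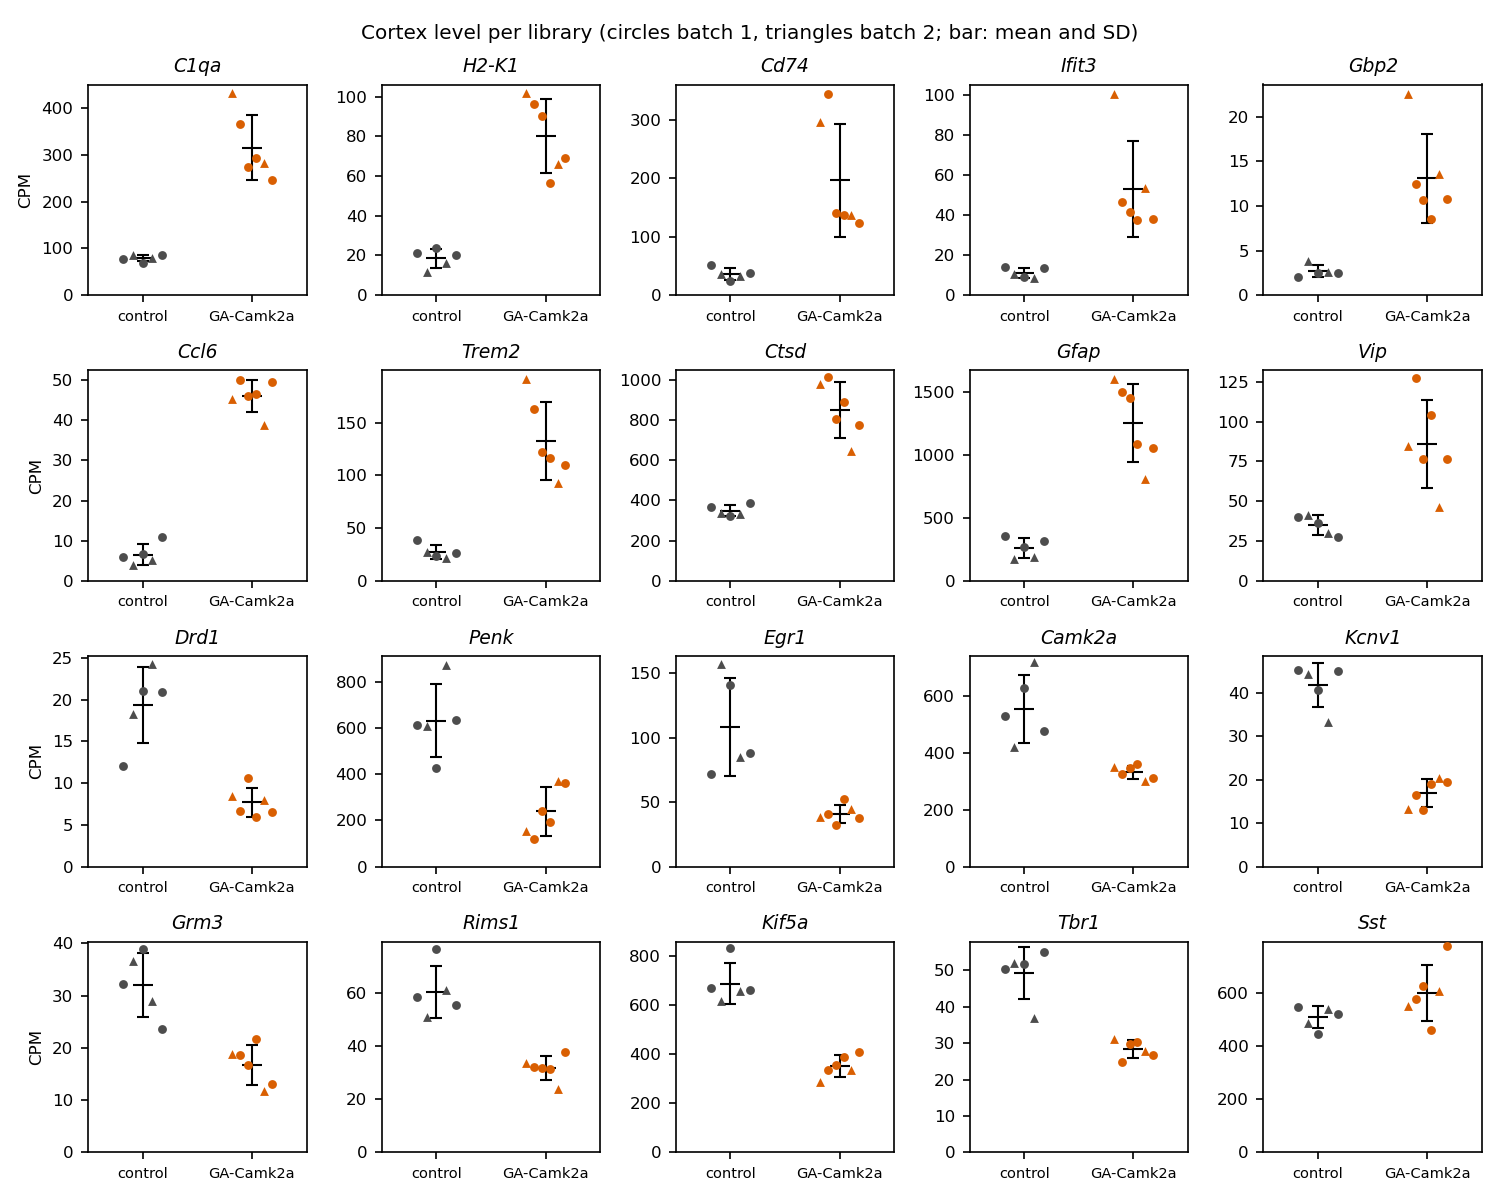
CPM of 20 genes in each cortex library. Points are mice, circles for batch 1 and triangles for batch 2, and bars give the mean and SD of 5 controls and 6 GA-Camk2a mice; axes differ between panels. C1qa, Cd74 and Gfap show separate ranges for the genotypes, as do Drd1 and Egr1 in the other direction, whereas Sst overlaps.

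Reactive astrocyte genes rose in 13 of 17 cases tested (4 without the high-Xist libraries and 8 without control 31 alone), with a median of 1.12. Gfap, the astrocytic intermediate filament, was at 353, 172, 273, 193 and 317 CPM in controls and 810.4 to 1602 CPM (median 1271) in GA-Camk2a mice, without overlap (2.27 ± 0.16, adjusted p = 3.8e-09). The vimentin gene Vim (1.67 ± 0.23) rose with it, whereas the filament protein Synm was at 0.13 ± 0.18. The protease inhibitor Timp1 (2.28 ± 0.35), the oncostatin M receptor Osmr (1.89 ± 0.37), the hyaluronan receptor Cd44 (1.11 ± 0.33), the sphingosine phosphate receptor S1pr3 (1.12 ± 0.25) and the proteoglycan Srgn (1.26 ± 0.19) were higher, and so was Stat3 (0.49 ± 0.14), which transduces cytokine signals in these cells. In the list of genes by which astrocytes carry out transport 11 of 24 were higher (7 without the high-Xist libraries), among them the gap junction protein Gjb6 (0.78 ± 0.14), Mlc1 (0.77 ± 0.14), the glutamate transporter Slc1a3 (0.55 ± 0.11) and the water channel Aqp4 (0.47 ± 0.12). The other glutamate transporter, Slc1a2 (0.14 ± 0.10), glutamine synthetase Glul (0.20 ± 0.11) and the potassium channel Kcnj10 (0.08 ± 0.12) were not called.

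Metal-binding, antioxidant and membrane-repair genes rose in part. The metallothionein Mt2 was at 148, 197, 136, 196 and 145 CPM in controls and 291 to 540.2 CPM (median 402) in GA-Camk2a mice (1.35 ± 0.14, adjusted p = 8.34e-07), without overlap, and Mt1 (1.07 ± 0.13) and Mt3 (0.48 ± 0.10) rose too. Nfe2l2 (1.13 ± 0.17), the transcription factor of the antioxidant response, rose. Of genes it is known to activate Prdx1 (0.45 ± 0.10) and both ferritin chains rose, and Nqo1 (0.62 ± 0.25), Gclc (-0.18 ± 0.16), Gclm (0.30 ± 0.10) and Srxn1 (-0.10 ± 0.11) were not called. The peroxiredoxin Prdx6 (1.18 ± 0.11) and the NADPH oxidase subunit Cyba (1.60 ± 0.18) were higher, and 8 of 31 genes were called higher in all (5 without the high-Xist libraries). The ferritin chains Ftl1 (0.88 ± 0.11) and Fth1 (0.61 ± 0.10), which store iron, rose together with Tf (0.45 ± 0.10) and its receptor Tfrc (0.45 ± 0.14), while the iron exporter Slc40a1 was at 0.43 ± 0.21, in a list with 4 of 14 higher (2 without the high-Xist libraries). Annexins and S100 proteins, which bind calcium and membranes, rose in 9 of 14 cases (6 without the high-Xist libraries), led by Anxa1 (1.42 ± 0.26), S100a11 (1.33 ± 0.26) and Anxa2 (0.97 ± 0.16). The tetraspanins Cd9 (1.40 ± 0.12) and Cd37 (1.40 ± 0.24) and the actin-binding Capg (1.86 ± 0.26), Plek (1.52 ± 0.23) and Cotl1 (0.79 ± 0.10) rose as well. So did Gpnmb (2.14 ± 0.50), Spp1 (2.11 ± 0.25), Igf1 (0.93 ± 0.24) and Tgfbr2 (0.81 ± 0.21) of the growth factor and TGF-beta list. In these lists 7 of 20 integrin and tetraspanin genes, 6 of 31 actin-binding genes and 8 of 29 members of the growth factor and TGF-beta list were higher, and 4 actin-binding genes and 1 member of the growth factor and TGF-beta list were lower. Without the high-Xist libraries the numbers higher were 3, 4 and 4, with 3 actin-binding genes lower, and 5 members of the growth factor and TGF-beta list were higher without GA-Camk2a 23 or 30.

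Some oligodendrocyte and vascular genes rose. 4 of 27 myelin and maturation genes were higher, the transcription factor Myrf (0.63 ± 0.16), Pllp (0.43 ± 0.14), Cldn11 (0.41 ± 0.11) and Cnp (0.35 ± 0.09), calls that were lost without the high-Xist libraries, while Mbp (-0.01 ± 0.09) and Mog (0.03 ± 0.15) were not called. Of 25 endothelial and pericyte genes, Tagln (0.88 ± 0.28), Acta2 (0.87 ± 0.19), Vtn (0.80 ± 0.13) and Ly6a (0.49 ± 0.14) were higher, of which 1 without the high-Xist libraries and 2 without control 31, control 38 or GA-Camk2a 34, and 2 with DESeq2. The endothelial defining genes Pecam1 (-0.21 ± 0.23) and Cldn5 (0.46 ± 0.20) were not called. Hemoglobin rows Hba-a2 (0.82 ± 0.20), Hba-a1 (0.69 ± 0.18) and Hbb-bt (0.54 ± 0.17) were higher, calls that were lost without control 31 and with DESeq2. Of the blood and choroid plexus genes 1 was called higher without control 38 and 1 without the high-Xist libraries. Ttr was at 0.56 ± 0.27 (adjusted p = 0.202). The part of blood and choroid plexus in the gene groups above was not tested.

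Many of the genes with the deepest falls mark striatal projection neurons, although the libraries were labelled cortex. Of 16 tested, 14 were lower and none was higher, with a median of -1.37 (13 lower without the high-Xist libraries, and 11 to 15 over the 23 alternatives). Drd1, the dopamine receptor of the direct pathway, was at 12.1, 18.3, 21.1, 24.3 and 20.8 CPM in controls and 5.91 to 10.6 CPM (median 7.32) in GA-Camk2a mice (-1.38 ± 0.20, adjusted p = 5.35e-05). Adora2a, the adenosine receptor of the indirect pathway, was at 25.2, 22.1, 21.4, 30.1 and 27.8 CPM in controls and 1.97 to 9.87 CPM (median 6.80) in GA-Camk2a mice (-1.95 ± 0.24, adjusted p = 7.85e-06). Neither receptor overlapped between the genotypes. The genes of both pathways fell, including Drd2 (-1.54 ± 0.39), Gpr6 (-1.85 ± 0.25) and Penk (-1.35 ± 0.21) of the indirect and Tac1 (-1.05 ± 0.20) of the direct one. The shared signalling genes Rgs9 (-1.68 ± 0.17), Scn4b (-1.64 ± 0.18), Pde10a (-1.49 ± 0.16), Ppp1r1b (-1.10 ± 0.14), which encodes DARPP-32, and Adcy5 (-1.05 ± 0.14) were lower too, while Pdyn (-0.50 ± 0.22) and Rxrg (-0.56 ± 0.19) were not called. The summed level of 5 striatal markers was 145 to 230.2 CPM in controls and 34.2 to 72.2 CPM in GA-Camk2a mice, and the 4 thalamic markers summed to 53.4 to 101 CPM in controls and 59.9 to 79.1 CPM in GA-Camk2a mice. Whether a different amount of striatum in the dissected pieces contributed was not tested, and it cannot be told apart from a fall of these genes within cortical cells.

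Pyramidal neuron genes fell in part. 7 of 15 identity genes were lower and none higher (3 lower without the high-Xist libraries). Tbr1, a transcription factor of deep-layer neurons, was at 50.4, 52.0, 51.6, 37.0 and 55.0 CPM in controls and 24.9 to 31.1 CPM (median 28.8) in GA-Camk2a mice (-0.82 ± 0.12, adjusted p = 0.000101), without overlap. Neurod6 (-0.78 ± 0.15), Mef2c (-0.69 ± 0.10), Lmo4 (-0.41 ± 0.11) and Bcl11a (-0.34 ± 0.11) fell. Slc17a7, the vesicular glutamate transporter of these cells, was at 383, 336, 419, 286 and 427 CPM in controls and 255 to 396 CPM (median 301) in GA-Camk2a mice, with overlap and no call (-0.27 ± 0.10, adjusted p = 0.0828). Among layer markers 7 of 25 were lower (4 without the high-Xist libraries and 4 without GA-Camk2a 16 alone), namely Nr4a2 (-1.16 ± 0.23), Bcl11b (-0.93 ± 0.12), Lamp5 (-0.93 ± 0.13), Foxp1 (-0.67 ± 0.12), Foxp2 (-0.62 ± 0.19), Crym (-0.44 ± 0.14) and Etv1 (-0.35 ± 0.11), of which Bcl11b and Foxp1 are also striatal genes. The upper-layer gene Cux2 (-0.37 ± 0.17) and the deep-layer genes Fezf2 (0.01 ± 0.19) and Tle4 (-0.25 ± 0.12) were not called. The layer marker Rorb went the other way without a call (0.45), with a maximum of 631 CPM against a median of 159 CPM. The summed level of 5 cortex markers, Rorb among them, was 728 CPM in GA-Camk2a 41 and 297 to 407 CPM in controls.

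Interneuron genes went the other way in part, with 7 of 23 higher and 2 lower (5 and 1 without the high-Xist libraries). Vip, a peptide of disinhibitory interneurons, was at 40.3, 41.4, 36.1, 30.1 and 27.8 CPM in controls and 46.3 to 127 CPM (median 80.6) in GA-Camk2a mice (1.31 ± 0.18, adjusted p = 3.67e-05), and the 6 GA-Camk2a values lay above the highest control. The peptides Crh (0.96 ± 0.22), Tac2 (0.84 ± 0.15) and Npy (0.44 ± 0.11) and the serotonin receptor Htr3a (0.89 ± 0.29) also rose. The general markers Gad1 (0.11 ± 0.09), Gad2 (0.08 ± 0.13) and Slc32a1 (0.07 ± 0.15) and the class markers Pvalb (0.24 ± 0.12) and Sst (0.24 ± 0.11) were not called. Reln (-0.60 ± 0.17) fell, and so did Tac1, given above with the striatal genes. Sst was at 545, 486, 446, 541 and 521 CPM in controls and 462 to 776 CPM (median 592) in GA-Camk2a mice, with overlap.

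**Figure D4:**
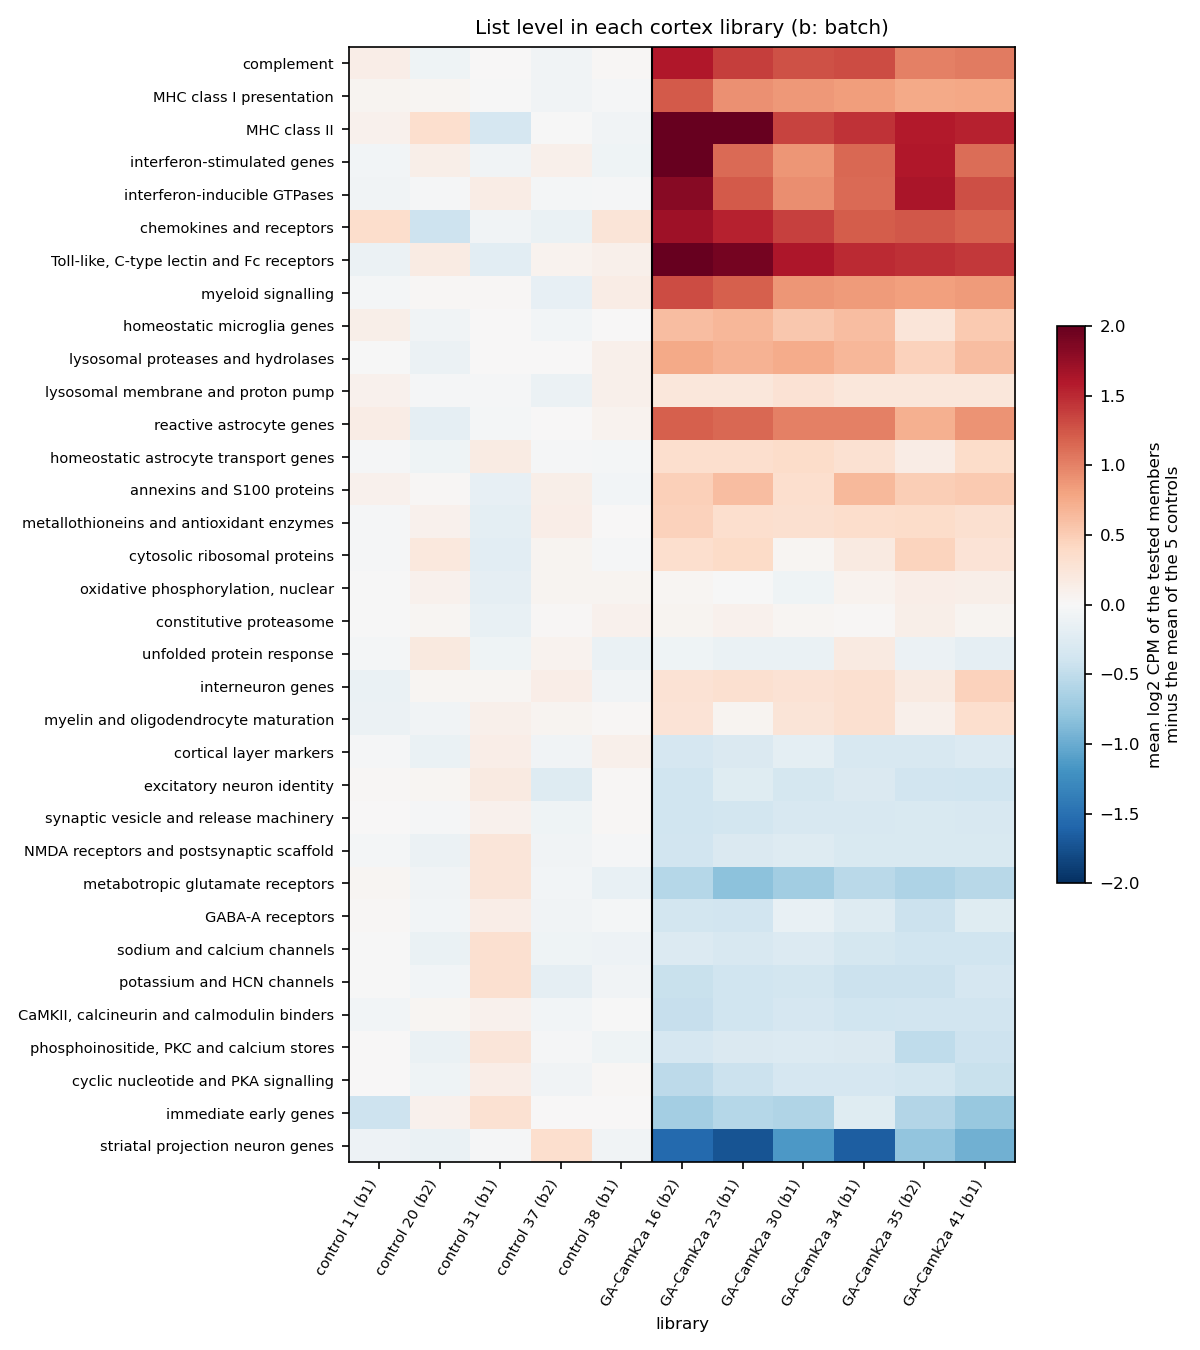
Level of gene lists in each cortex library. Each cell is the mean log2 CPM of a list's tested members in that library minus the mean of the 5 controls, and colours end at -2 and 2, so larger differences take the end colour. The 6 GA-Camk2a columns are above the controls for the complement, MHC and interferon lists and below them for the striatal list.

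Several genes of activity-dependent transcription were lower. Of 25 immediate early genes tested, 12 fell and none rose (4 without the high-Xist libraries), with a median of -0.51. Egr1, a zinc finger factor induced by synaptic activity, was at 71.6, 157, 140.4, 85.0 and 87.8 CPM in controls and 32.4 to 52.6 CPM (median 39.6) in GA-Camk2a mice, without overlap (-1.39 ± 0.17, adjusted p = 8.24e-06). Arc, whose product acts at active synapses, was at 49.4, 76.1, 140.0, 58.6 and 100.1 CPM in controls and 17.2 to 57.2 CPM (median 25.0) in GA-Camk2a mice (-1.63 ± 0.23, adjusted p = 4.04e-05). The ranges overlapped, since GA-Camk2a 34, the highest of its group, lay above the lowest control. Egr2 (-1.55 ± 0.37), Egr3 (-1.55 ± 0.21), Egr4 (-0.84 ± 0.17), the nuclear receptors Nr4a1 (-1.03 ± 0.26), Nr4a2 (-1.16 ± 0.23) and Nr4a3 (-0.88 ± 0.25), the scaffold Homer1 (-1.12 ± 0.17), Fos (-0.83 ± 0.21) and the ERK phosphatase Dusp6 (-0.60 ± 0.16) fell. The AP-1 partners Jun (0.27 ± 0.16), Jund (-0.06 ± 0.10) and Fosb (-0.12 ± 0.33) were not called, nor was Bdnf (-0.16 ± 0.19), a secreted target of activity. Among other secreted neuronal proteins Nptx2 (-0.78 ± 0.21), Nrn1 (-0.67 ± 0.13) and the prohormone convertase Pcsk2 (-0.73 ± 0.09) fell, while Cpe (0.56 ± 0.09), Scg2 (0.35 ± 0.10) and Scg3 (0.32 ± 0.11) rose, in a list with 4 of 26 higher and 7 lower (3 and 5 without the high-Xist libraries, and 2 and 1 higher without control 11 and control 38). The deepest fall of this list was that of Penk, given above with the striatal genes.

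Several postsynaptic receptor genes fell. Metabotropic glutamate receptors had 6 of 7 members lower (1 without the high-Xist libraries and 3 without control 31 or GA-Camk2a 23), and 3 with DESeq2. Grm3, which is made by neurons and astrocytes, was at 32.3, 36.6, 38.9, 29.0 and 23.6 CPM in controls and 11.7 to 21.7 CPM (median 17.7) in GA-Camk2a mice (-0.94 ± 0.18, adjusted p = 0.00108), without overlap. Grm8 (-1.18 ± 0.38), Grm2 (-0.73 ± 0.18), Grm5 (-0.73 ± 0.11), Grm4 (-0.63 ± 0.20) and Grm7 (-0.59 ± 0.17) fell. For AMPA and kainate receptors 5 of 26 were lower (2 without the high-Xist libraries), among them Gria3 (-0.62 ± 0.12), Gria2 (-0.61 ± 0.10) and the kainate auxiliary subunit Neto1 (-0.59 ± 0.11), whereas Gria1 was at -0.06 ± 0.10. NMDA receptors and their scaffold had 10 of 29 lower (3 without the high-Xist libraries and 6 without control 31 alone), with Grin2a (-0.72 ± 0.15), Grin2b (-0.62 ± 0.13), the exchange factor Kalrn (-0.80 ± 0.13) and the PSD-95 gene Dlg4 (-0.47 ± 0.14) called and the obligate subunit Grin1 at -0.24 ± 0.12. Of GABA receptor and inhibitory scaffold genes 7 of 18 were lower, Gabrd (-0.55 ± 0.12) among them. These calls were lost without the high-Xist libraries, and 3 were made without control 31 alone. Receptors for amines and peptides had 4 of 23 lower, namely Adrb1 (-0.99 ± 0.19), Adra2c (-0.97 ± 0.25), Htr2a (-0.96 ± 0.22) and Sstr2 (-0.68 ± 0.18), and these calls were lost without the high-Xist libraries.

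Many calcium and second-messenger genes fell. The CaMKII, calcineurin and calmodulin-binding list had 17 of 29 lower (5 without the high-Xist libraries). Camk2a, the kinase whose promoter drives the Cre, was at 527, 422, 627, 719 and 476 CPM in controls and 302 to 359 CPM (median 335) in GA-Camk2a mice (-0.74 ± 0.11, adjusted p = 0.000102). Ppp3ca, the catalytic subunit of calcineurin, was at 841, 1044, 1129, 1056 and 973 CPM in controls and 447 to 582 CPM (median 513) in GA-Camk2a mice (-0.96 ± 0.09, adjusted p = 3.21e-07). Neither gene overlapped between the genotypes. The upstream kinase Camkk2 (-1.08 ± 0.11), the CaMKII inhibitor Camk2n1 (-0.93 ± 0.12), Camk4 (-0.87 ± 0.15), Camk2b (-0.45 ± 0.10) and the calmodulin-binding Pcp4 (-0.91 ± 0.10) and Nrgn (-0.51 ± 0.12) fell, while Camk2g (-0.18 ± 0.09) and Calm3 (-0.16 ± 0.08) were not called. Of phosphoinositide, protein kinase C and calcium store genes 17 of 33 were lower (7 without the high-Xist libraries), among them the diacylglycerol kinase Dgkb (-1.22 ± 0.15), the phospholipase Plcb1 (-0.87 ± 0.10), the kinase Prkcb (-0.81 ± 0.17), the calcium pumps Atp2b1 (-0.81 ± 0.10) and Atp2b2 (-0.77 ± 0.09) and the release channels Ryr2 (-0.57 ± 0.12) and Itpr1 (-0.57 ± 0.12). The cyclic nucleotide list had 11 of 26 lower (7 without the high-Xist libraries), including Pde1b (-0.71 ± 0.12), Akap5 (-0.68 ± 0.22), Prkar2b (-0.63 ± 0.13) and Adcy1 (-0.62 ± 0.11) beside the striatal Gnal (-0.67 ± 0.12) and Gng7 (-0.77 ± 0.16). Its lower members also include Pde10a, Ppp1r1b and Adcy5, given above with the striatal genes. The limit on dissected striatum stated there holds for these as well. RGS proteins, which end G protein signals, had 1 of 15 higher and 4 lower (1 lower and the rise lost without the high-Xist libraries, and 2 without control 31 or 37 or GA-Camk2a 16, 23 or 41), with Rgs4 (-0.91 ± 0.11) and Rgs7bp (-0.64 ± 0.10) lower and Rgs10 (0.43 ± 0.11), which microglia express, higher.

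Many ion channel genes were lower. Of 47 potassium and HCN channel genes tested 23 were lower and none higher (6 lower without the high-Xist libraries and 13 without control 31 alone), with a median of -0.50. Kcnv1, a modifying subunit of Kv2 channels, was at 45.4, 44.3, 40.7, 33.3 and 45.0 CPM in controls and 13.1 to 20.4 CPM (median 17.8) in GA-Camk2a mice (-1.28 ± 0.15, adjusted p = 2.7e-06). Kcna4, which carries fast inactivating current, was at 10.1, 11.6, 14.4, 14.8 and 13.6 CPM in controls and 5.39 to 8.47 CPM (median 6.75) in GA-Camk2a mice (-0.99 ± 0.20, adjusted p = 0.00216). The ranges of both were separate. Falls reached several families, with Kcnh1 (-0.85 ± 0.17) and Kcnh3 (-0.81 ± 0.15) of the Eag family, Kcnb2 (-0.88 ± 0.19) of Kv2, Kcnq3 (-0.60 ± 0.13) and Kcnq5 (-0.76 ± 0.19) of the M current, Kcnd2 (-0.67 ± 0.16) and the inward rectifier Kcnj3 (-0.65 ± 0.12). The Kv3 channels Kcnc1 (-0.03 ± 0.13) and Kcnc2 (-0.22 ± 0.15), typical of fast-spiking interneurons, were not called. Sodium and calcium channels had 12 of 23 lower (2 without the high-Xist libraries, 4 without control 31, 5 without GA-Camk2a 23 and 7 without control 37 or GA-Camk2a 35, and 7 with DESeq2), among them Scn8a (-0.66 ± 0.12), Scn2a (-0.58 ± 0.10), Scn1a (-0.46 ± 0.11), Cacna1i (-0.74 ± 0.22), Cacna2d1 (-0.73 ± 0.12) and Cacna1a (-0.47 ± 0.14).

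Presynaptic and axonal genes fell for some members. In the vesicle and release list 13 of 38 were lower (8 without the high-Xist libraries). Rims1, which organises release sites, was at 58.5, 51.0, 76.8, 61.3 and 55.6 CPM in controls and 24.1 to 37.9 CPM (median 32.1) in GA-Camk2a mice (-0.95 ± 0.13, adjusted p = 1.89e-05), without overlap. The priming factor Unc13a (-0.70 ± 0.12), Cplx2 (-0.64 ± 0.09), the calcium sensor Syt1 (-0.59 ± 0.09), Sv2b (-0.66 ± 0.10) and Snap25 (-0.47 ± 0.09) fell, while the abundant vesicle proteins Syp (-0.23 ± 0.08), Syn1 (-0.24 ± 0.09) and Vamp2 (-0.23 ± 0.08) were not called. Among cytoskeletal genes 11 of 28 were lower (3 without the high-Xist libraries), with the motors Kif5a (-0.98 ± 0.09) and Kif5c (-0.50 ± 0.09), the neurofilaments Nefm (-0.87 ± 0.15) and Nefl (-0.48 ± 0.09) and the microtubule proteins Map2 (-0.44 ± 0.09) and Map1b (-0.38 ± 0.10). Kif5a was at 667, 616, 829, 657 and 662 CPM in controls, where control 31 stood apart, and 285 to 408 CPM (median 346) in GA-Camk2a mice, below each control. Axon guidance genes had 8 of 44 lower (2 without the high-Xist libraries, 4 without control 31 and 5 without GA-Camk2a 16, 23 or 34, and 5 with DESeq2), among them Epha7 (-0.87 ± 0.13), Epha4 (-0.65 ± 0.12) and Ntng1 (-0.80 ± 0.14). Of neuronal RNA-binding proteins 8 of 27 were lower, including the splicing factors Rbfox1 (-0.63 ± 0.09) and Nova2 (-0.50 ± 0.14), with 1 without the high-Xist libraries, 3 without control 31 alone and 5 with DESeq2. The calcium-binding copines Cpne5 (-0.88 ± 0.15), Cpne4 (-0.64 ± 0.15) and Cpne9 (-0.59 ± 0.18) fell, of 8 tested and with 2 lower without the high-Xist libraries, and of perineuronal net genes Ncan (-0.39 ± 0.12) fell, alone of 10, a call lost with DESeq2, with upper quartile scaling and without the high-Xist libraries.

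Genes of protein quality control changed in both directions. Of 33 heat shock genes 4 were higher and 4 lower, against 6.35% and 6.17% of all genes tested. Without the high-Xist libraries 1 was higher and the falls were lost, and 2 were higher without control 11, control 31 or GA-Camk2a 34. With DESeq2 on all libraries 1 was higher and 4 lower. The small heat shock proteins Hspb8 (0.96 ± 0.15), Hspb6 (0.67 ± 0.18) and Cryab (0.35 ± 0.11) and the Hsp70 relative Hspa2 (0.36 ± 0.12) rose, and the Hsp90 chaperones Hsp90aa1 (-0.40 ± 0.09) and Hsp90ab1 (-0.34 ± 0.09), Hsph1 (-0.49 ± 0.10) and Dnajb5 (-0.55 ± 0.16) fell. Inducible Hspa1a (-0.16 ± 0.19) and Hspa1b (-0.45 ± 0.26) were not called. The unfolded protein response list had none higher and 2 lower of 24 (8.33%, against 6.17% of all genes tested). These were Sel1l (-0.38 ± 0.11) and Hsp90b1 (-0.28 ± 0.09), both calls lost without control 31, with Hspa5 (BiP) at -0.20 ± 0.13, Xbp1 at -0.04 ± 0.12 and Herpud1 at 0.04 ± 0.11. In the integrated stress response list 6 of 26 were higher (3 without the high-Xist libraries). These were Nupr1 (0.85 ± 0.13), the CHOP gene Ddit3 (0.55 ± 0.11), the amino acid transporter chain Slc3a2 (0.63 ± 0.11) and the serine synthesis enzymes Phgdh (0.59 ± 0.19), Psph (0.46 ± 0.11) and Psat1 (0.38 ± 0.11), while Atf4 (-0.16 ± 0.13), Asns (-0.16 ± 0.09) and Chac1 (-0.17 ± 0.21) were not called. Atf3 held 9 counts over the controls and 58 over the GA-Camk2a libraries, too few to test.

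Cell death genes were called in part. Bcl2a1b (2.74 ± 0.39), an anti-apoptotic protein of leukocytes, Pycard (1.97 ± 0.20), the inflammasome adaptor, Casp6 (1.15 ± 0.32) and Bid (0.80 ± 0.25) were called, 4 of 13 tested and 2 without the high-Xist libraries, without control 31 alone or without GA-Camk2a 41 alone. Casp1 was at 0.61 ± 0.31 and was not called. Of 22 p53 targets and DNA damage genes Fas (1.39 ± 0.28), Trp53 (0.69 ± 0.22) and Gadd45g (0.56 ± 0.14) were higher, and these calls were lost without the high-Xist libraries. Cdkn1a (-0.03 ± 0.19), Mdm2 (0.11 ± 0.13) and Bbc3 (0.15 ± 0.29) were not called.

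Few genes of oxidative phosphorylation were called. Of 83 nuclear genes of oxidative phosphorylation 1 was called, Cox6a2 (0.55 ± 0.16), but not without control 31. The 12 mitochondrial ones were not called by edgeR or DESeq2, with 1 at an unadjusted p under 0.05, and the medians of the lists were 0.04 and -0.05. In glycolysis Hk2 (0.84 ± 0.25) and Aldoc (0.42 ± 0.09) rose and Pfkp (-0.49 ± 0.10) and Eno2 (-0.33 ± 0.08), a neuronal enolase, fell, of 23 tested. Each direction made up 8.7% of the list, against 6.35% higher and 6.17% lower of all genes tested. Without the high-Xist libraries the rises were lost and 2 were lower. Idh2 (0.65 ± 0.16) and Suclg2 (0.83 ± 0.16) were higher among 22 genes of the tricarboxylic acid cycle (9.09%, against 6.35% of all genes tested). Among cytosolic ribosomal proteins 34 of 84 were called higher with a small median of 0.28, but the number ranged from 0 to 42 over the alternatives and was 2 (with 1 lower) without the high-Xist libraries, 19 without control 31 and 22 without control 37. Rpl37a was at 637, 668, 499.6, 648 and 648 CPM in controls, with control 31 the lowest, and 719 to 1539 CPM (median 877) in GA-Camk2a mice, above each control, and the many ribosomal pseudogenes make these counts uncertain. For sphingolipid genes Sgpl1 (0.83 ± 0.22), Cers2 (0.56 ± 0.12) and Sptssa (0.46 ± 0.11) rose and Ugcg (-0.55 ± 0.10) and Smpd3 (-0.53 ± 0.13) fell, in a list with 4 of 24 higher and 2 lower. Its rises lost their calls without the high-Xist libraries. Of 18 clock genes Hlf (-0.64 ± 0.13) was lower (5.56%, against 6.17% of all genes tested), but not without the high-Xist libraries. In the glucocorticoid list, with 5 of 17 higher and 1 lower (3 higher and the fall lost without the high-Xist libraries), Plekhf1 (1.14 ± 0.25), Sult1a1 (0.91 ± 0.24) and Fam107a (0.74 ± 0.14) rose while the sensitive targets Fkbp5 (-0.01 ± 0.15) and Tsc22d3 (0.04 ± 0.13) were not called. Of 20 long noncoding RNAs Gas5 (0.32 ± 0.10) was higher and Snhg14 (-0.58 ± 0.16) lower, both calls lost without control 31. Each is 5% of that list, below the 6.35% higher and 6.17% lower of all genes tested.

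Genes linked to ALS and frontotemporal dementia were examined because the transgene models the C9orf72 repeat. 3 of 34 were higher and 4 lower (3 and 1 without the high-Xist libraries), near the shares of all genes tested (6.35% and 6.17%). The risers were Spp1 (2.11 ± 0.25), the progranulin gene Grn (1.01 ± 0.13) and Sqstm1 (0.51 ± 0.08), and the genes that fell were Kif5a (-0.98 ± 0.09), Unc13a (-0.70 ± 0.12), Tuba4a (-0.40 ± 0.10) and Ubqln2 (-0.38 ± 0.10). C9orf72 itself was at -0.21 ± 0.15 (adjusted p = 0.409) and Tardbp, which encodes TDP-43, at -0.24 ± 0.15. Unc13a was at 79.6, 72.2, 118, 78.7 and 78.1 CPM in controls, with control 31 apart from the rest, and 45.5 to 62.4 CPM (median 53.2) in GA-Camk2a mice, below each control.

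In genes outside the lists, 1141 were called. Those with the lowest p among the risers were Lyz2 (2.11 ± 0.18), a myeloid lysozyme, Fxyd1 (1.41 ± 0.13), a regulator of the sodium pump, the lipid carriers Clu (1.00 ± 0.10) and Apoe (1.02 ± 0.11), Tmem176b (1.03 ± 0.11), Ifi27 (1.04 ± 0.12), Rida (1.05 ± 0.12), Cnn3 (0.91 ± 0.11), Tsc22d4 (0.76 ± 0.09) and Tmem176a (1.13 ± 0.14). Lyz2 was at 60.5, 32.7, 34.7, 24.8 and 41.7 CPM in controls and 101 to 228 CPM (median 156) in GA-Camk2a mice, without overlap. Those with the lowest p among the fallers included the anoctamin Ano3 (-1.39 ± 0.14), the cAMP-regulated Arpp21 (-0.89 ± 0.10), the striatal GTPase Rasd2 (-1.23 ± 0.13), the dendritic protein Ddn (-0.91 ± 0.11), the ubiquitin ligase subunit Fbxw7 (-0.87 ± 0.11), the kinase Rock2 (-0.94 ± 0.12), Diras2 (-0.86 ± 0.11), Pgm2l1 (-0.89 ± 0.12) and the Rac regulator Chn1 (-0.61 ± 0.08). The adjusted p of these genes lay between 6.09e-08 (Lyz2) and 2.27e-05 (Chn1).

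The cortical changes were set beside those of hippocampus in a fit of all 21 libraries, 20 of them from mice that gave both tissues, with a term for the difference of the genotype effect. Of 14751 genes tested 59 differed (0.4%), 37 with a more positive and 22 with a more negative change in cortex. The median of a list was taken in each tissue. It was 1.61 in cortex and 1.49 in hippocampus for the 10 complement genes tested in each, and 1.11 and 1.34 for 16 reactive astrocyte genes. Of the 12 striatal genes tested in each tissue 6 differed, all more negative in cortex. Rgs9 changed by -1.68 in cortex and 0.05 in hippocampus (difference -1.71 ± 0.28, adjusted p = 0.00474), and Pde10a by -1.49 and -0.12 (difference -1.36 ± 0.22, adjusted p = 0.00316). Ppp1r1b, Penk, Adcy5 and Rxrg were the others, and with the mouse as a replicate block the call of Rxrg was lost (adjusted p = 0.0642 by edgeR). Adora2a also differed, but it was not tested in hippocampus alone and its call was lost with the block (0.103). Mef2c, a transcription factor of excitatory neurons, was -0.69 in cortex and 0.27 in hippocampus (difference -0.93 ± 0.18, adjusted p = 0.0168).

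Genes with a deeper fall in hippocampus included several of the synapse. Cacng8, an auxiliary AMPA receptor subunit, changed by -0.13 in cortex and -1.30 in hippocampus (difference 1.19 ± 0.16, adjusted p = 0.000798). The AMPA receptor auxiliary subunit Cnih2 (-0.14 and -1.04), the GABA receptor subunit Gabra5 (-0.12 and -1.07), the copine Cpne6 (0.22 and -0.63) and the pyramidal transcription factor Neurod6 (-0.78 and -1.97) showed the same order. The actin regulators Tmsb4x (0.43 and -0.28) and Cotl1 (0.79 and 0.18) were more positive in cortex, the latter not with the replicate block (adjusted p = 0.0792 by edgeR). With a replicate block for the mouse, 67 of 14699 genes differed, 42 of them among the 59. Without the 6 libraries of the high-Xist mice no gene differed by edgeR, with 930 at an unadjusted p under 0.05, and 16 did so by DESeq2, so none of the tissue differences named here was called by edgeR without those mice. Leaving out 1 library at a time gave 22 to 66 genes.

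**Figure D5:**
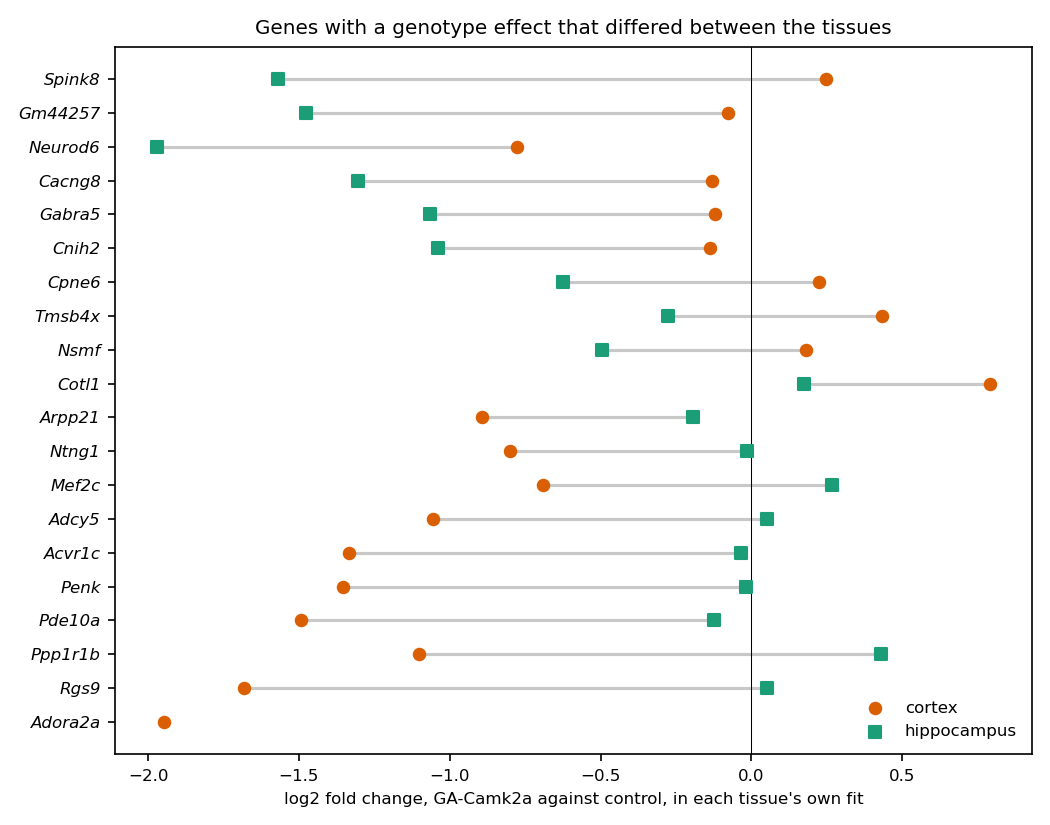
Genotype effect in each tissue for 20 genes called for the tissue difference, the 10 with the lowest p and 10 others that the naming rule chose for their change in cortex. The x axis is the log2 fold change of GA-Camk2a over control from each tissue's own fit, circles for cortex and squares for hippocampus; Adora2a was not tested in hippocampus and has a circle alone. Striatal genes such as Rgs9 and Pde10a are lower in cortex and near 0 in hippocampus, and Cacng8 and Cnih2 are lower in hippocampus and near 0 in cortex.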

How the data were processed

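Total RNA from cortex and hippocampus was sequenced with prime-seq. The deposited table holds whole-number counts for 64361 genes and a GFP row, and the study's methods name zUMIs for the authors' counting. The processing notes of the submitters list FastQC 0.11.8, cutadapt 1.12, STAR, DESeq2 1.44 and the mm39 build. The annotation release, the use of introns and strand, and whether UMIs or reads were counted are not given in the sources used here, so overlapping and near-identical genes are uncertain. No column of the table was left unused.

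Counts of the 11 cortex libraries (1048201 to 3609323 each) were fitted in R 4.3.3 with edgeR 4.0.16, TMM normalization, filterByExpr with a minimum count of 10, batch as a covariate and the quasi-likelihood F-test, and p-values were adjusted by Benjamini-Hochberg over all genes tested, with 0.05 as the threshold. CPM values are counts scaled to TMM-adjusted library sizes, and the level of a list is the average of its tested members' log2 CPM, computed with 2 as the prior count. The study's methods name DESeq2 and do not say whether a covariate was used for these data. DESeq2 1.42.0 was run as an alternative with and without batch, as was limma 3.58.1 (voom) with batch. The fit was tested on simulated data: over 13058 genes of the cortex comparison it recovered 16.9% of genes changed by 0.5 on the log2 scale, 75% of those changed by 1 and 98.4% of those changed by 2. The genes changed by these sizes numbered 65, 60 and 62, and 11 unchanged genes were called. The simulation had no batch effect and far fewer changed genes than the 12.5% called in the data, so recovery in the data can differ.

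Replicates of a genotype differed by more than counting error (chi-square per degree of freedom 2.1 to 8.77), so no library was counted as a copy. Within cortex each mouse gave 1 library and there is no pairing. For the comparison with hippocampus 10 mice gave both tissues, which pairs the libraries by mouse, and a fit with the mouse as a replicate block was run.

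The gene lists, the rules for naming genes and the tests were chosen with earlier results of these data known. Named genes are the largest rises and falls without overlap, up to 4 called members with the lowest p and the defining members of each list, and the 10 lowest p in each direction outside the lists. Other members are named beyond that rule where they fill out a family and were chosen after their values were seen. Promoter windows came from RefSeq tables of GRCm38.p6, matched by symbol. No genome of the files' build was used, so no coordinates are given for the counted genes. Lists were described by counts and medians. Some genes chosen by the naming rule are not reported here. The alternatives are given in the closing section.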

Additional observations from a re-analysis of the deposited data

Results flagged for a closer look

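Values per library were examined for 72 genes and 3 measures of the libraries (total counts, mitochondrial share and genes detected) in both genotypes, 150 groups of 5 or 6 libraries in all, for a highest or lowest library that stood apart from the rest by Dixon's criterion. Chance flags about 1 in 20 groups, which is 7.5 of 150, and 14 were found. GA-Camk2a 16 was the highest of its group for Ccl5 (75.3 CPM), Ifit3 (100.7 CPM), Gbp2 (22.6 CPM) and Clec7a (16.9 CPM), a C-type lectin. GA-Camk2a 34 was the highest for Arc (57.2 CPM), Egr3 (17.1 CPM) and Ttr (8205 CPM). GA-Camk2a 23 was the lowest for Pde10a (14.9 CPM). Control 31 was the lowest for Rpl37a (499.6 CPM) and Ddx3y (3.16 CPM) and the highest for Xist (73.3 CPM), Kif5a (829 CPM) and Unc13a (118 CPM). Control 37 was the lowest for Tbr1 (37.0 CPM).

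The genotype effect differed between cortex and hippocampus, by edgeR's test of the difference itself, for the following genes among others. The value is the log2 effect in cortex minus that in hippocampus. It was positive for Spink8 (1.83), Gm44257 (1.41), Neurod6 (1.23), Cacng8 (1.19), Gabra5 (0.97), Cnih2 (0.91), Cpne6 (0.87), Tmsb4x (0.72), Nsmf (0.70) and Cotl1 (0.63). It was negative for Adora2a (-2.19), Rgs9 (-1.71), Ppp1r1b (-1.56), Pde10a (-1.36), Penk (-1.34), Acvr1c (-1.27), Adcy5 (-1.08), Mef2c (-0.93), Ntng1 (-0.77) and Arpp21 (-0.70). With the mouse as a replicate block the adjusted p was above 0.05 for Adora2a (0.103), Arpp21 (0.0792), Cotl1 (0.0792) and Ntng1 (0.143).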

How the results depend on the processing

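Of 1635 genes called in cortex, 824 were called in each fit that left out 1 library. Leaving out 1 library gave 1038 to 1526 calls, 564 to 797 higher and 474 to 755 lower, with the lowest counts without control 31 (1038 calls, 474 lower). Batch 1 alone gave 876 (455 higher, 421 lower) and batch 2 alone 230 (132 and 98). Leaving out control 31, GA-Camk2a 16 and GA-Camk2a 35, chosen after seeing the data, gave 399 (228 and 171), and 645 (359 and 286) without the batch term as well, with fewer libraries. The counts under DESeq2 with batch (1218) and without (1159), no batch term (1280), upper quartile scaling (1625), no filter (1504), a stricter filter (1414), thinned counts (1111) and voom (1516) were within 1.5 times. Upper quartile scaling gave 57.8% of calls higher against 50.7%. Of 260 genes chosen by the naming rule 117 were called in each alternative that fitted them. Plxnd1 was at -0.57 in the main analysis and at 0.00601 in batch 2 alone. It was the only sign change among the 520 genes called with all libraries that were followed through each alternative, and the cause was not tested. Each alternative drew on the same libraries, so most signs were likely to hold.

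The difference between tissues was called for 59 genes, for 113 with DESeq2, 36 without batch, 159 with no filter, 92 with a stricter filter and 19 with thinned counts. It was called for 67 with the replicate block. Leaving out 1 library gave 22 to 66. The count fell by more than 1.5 times without cortex control 11 (39), 31 (29) or 37 (23) or cortex GA-Camk2a 23 (29) or 35 (39), and without hippocampus control 11 (32), 31 (22) or 37 (29) or hippocampus GA-Camk2a 23 (36). Without the libraries of the 3 high-Xist mice it was 0 with batch and 0 without (930 and 1117 genes at an unadjusted p under 0.05), and 16 with DESeq2. Genes with few counts, such as the 348 list members not tested, could not be judged at this depth.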

Other observations

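Gm33651, a predicted gene, had the deepest fall of all genes called in cortex, -3.28 ± 0.38 (adjusted p = 3.09e-06). It was at 10.1, 15.4, 5.26, 12.1 and 8.89 CPM in controls 11, 20, 31, 37 and 38 and at 0 to 1.85 CPM (median 0.581) in GA-Camk2a mice. The ranges were separate, but the level lies below the limit used for naming genes, so it was chosen after its values were seen.

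Gene families formed from the letters at the start of symbols, with at least 15 genes tested, were counted after the data were seen. Of 68 such families the Mapk family had the highest share of calls, 37.5% against 12.5% of all genes, with 5 of 16 lower and 1 higher. It was followed by the Rps family, which holds ribosomal proteins of the small subunit, their pseudogenes and kinases, with 35 of 98 higher (35.7%), and the Rgs family with 5 of 17 lower and 1 higher (35.3%). These counts were not repeated under the alternatives.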
